A study of Mus musculus with 10 samples.

Results

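Cytosolic ribosomal protein genes, which encode the proteins of the large (Rpl) and small (Rps) subunit of the ribosome, were followed in quadriceps muscle of aged mice that drank a supplement named 1C-MIM and of aged mice that did not. Members were taken by symbol: Rpl or Rps and a number, closed by at most an a, x or l, together with the stalk genes Rplp0, Rplp1 and Rplp2 and with Rpsa, leaving out pseudogenes marked -ps and the Rps6k kinases. This gave 81 of 24063 gene symbols in the deposited tables, 49 of the large and 32 of the small subunit, each represented by its transcript with the most reads. All 81 had at least 1 read, and 79 passed the filter on low counts and were tested. Rpl10l, with 1 read over all libraries, and Rpl39l, with 90 reads, were not.

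The 1C-MIM group held 5 wild-type C57BL mice whose water carried the supplement for 1 to 3 months, and the Control group held 5 wild-type C57BL mice on the facility's water. All were 17 to 20 months old, and all had an injury in the TA muscle, while the RNA came from quadriceps that was not injured. What 1C-MIM holds is not stated by any label, nor are sex, litter, cage or a library batch. Library totals, over 1 kept transcript per symbol, ran from 28521254 to 31771296 counts, and no library of a group matched another within sampling noise. The summed level of 5 skeletal muscle fibre markers was 154159 to 175263 counts per 1000000 (CPM) in 1C-MIM and 143095 to 163500 CPM in Control, above that of every other cell type's markers examined.

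The small subunit reads the mRNA and the large subunit joins the amino acids. A ribosome needs nearly every one of these proteins in a single copy, and their mRNAs are mostly short, abundant and made in parallel. In mammals the mRNAs begin with a run of pyrimidines, the 5′ terminal oligopyrimidine tract, through which the RNA-binding protein Larp1 and the growth-sensing kinase mTOR set how strongly they are translated. Adult striated muscle is known for swapping some parts of this machinery for muscle forms: Rpl3l stands in for Rpl3, a core protein next to the catalytic centre, and the elongation factor Eef1a2 stands in for Eef1a1.

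The start sites of several members that the results turn on show the letters these genes share or lack. The RefSeq promoter table (build GRCm38.p6, which is not the build of the counts) held 72 start sites for 60 of the 81 members. The windows below run from 45 bases before to 15 bases after the annotated start, 5′ to 3′ on the transcript's strand. Capitals mark CTTTC, a pyrimidine run, and CCGGAAG or its reverse complement CTTCCGG, the core bound by ETS factors. Rps16, Rps28, Rps15a, Rpsa, Rpl41 and Rpl11 are shown because they were called lower in 1C-MIM, Rpl4 because its fold change was the only positive one, although it was not called, and Rpl3l (the upstream of its starts) as the muscle paralog.
Rps16 (chr7:28350644-28350703, plus strand): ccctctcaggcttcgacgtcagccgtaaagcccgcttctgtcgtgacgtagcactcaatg
Rps28 (chr17:33824548-33824607, minus strand): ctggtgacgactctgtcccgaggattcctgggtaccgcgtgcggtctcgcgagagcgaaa
Rps15a (chr7:118116133-118116192, minus strand): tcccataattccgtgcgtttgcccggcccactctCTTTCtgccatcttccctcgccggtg
Rpsa (chr9:120127721-120127780, plus strand): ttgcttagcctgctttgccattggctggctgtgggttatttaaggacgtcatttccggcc
Rpl41 (chr10:128549154-128549213, minus strand): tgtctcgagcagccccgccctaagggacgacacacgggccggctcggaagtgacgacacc
Rpl11 (chr4:136053379-136053438, minus strand): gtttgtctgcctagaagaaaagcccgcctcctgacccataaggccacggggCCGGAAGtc
Rpl4 (chr9:64173342-64173401, plus strand): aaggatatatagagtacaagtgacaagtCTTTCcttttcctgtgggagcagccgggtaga
Rpl3l (chr17:24727781-24727840, plus strand): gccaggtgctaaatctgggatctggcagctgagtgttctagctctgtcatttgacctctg

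Within these 60-base windows, CTTTC stood on the transcript's strand at 24 of the 72 member starts (33.3%) and at 8.18% of all 32851 starts in the table. On the other strand it stood at 4.17% of the member starts and at 7.07% of all starts. CCGGAAG on either strand, searched in the whole 300 bases around the start, was found at 36.1% of the member starts and at 8.86% of all starts. A CTTTC whose last C opened the other motif would count for both. Of the members called lower in 1C-MIM, 28 had a start in the table, 11 with CTTTC and 10 with CCGGAAG; of those not called, 30 had a start, 11 with CTTTC and 14 with CCGGAAG. These counts were not tested, and the printed window of Rpl3l held neither motif. CTTTC is 1 fixed string, and windows without it, such as that of Rps25, can hold other pyrimidine runs. A start in the table equalled the RefSeq gene start for 73.3% of plus-strand genes. The share of starts with CTTTC is therefore not the share of mRNAs that begin with a pyrimidine tract.

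Across the members, levels spanned a wide range, given here as CPM per kilobase of transcript so that genes can be set side by side. The median tested member had 139 CPM per kilobase, with quartiles at 98.4 and 230.4. Averaged over all 10 libraries, the highest was Rplp1, a protein of the stalk that recruits the translation GTPases, at 535 CPM per kilobase in 1C-MIM and 667 in Control. Rpl4, which lines the tunnel through which the new protein leaves, had 572 CPM per kilobase in 1C-MIM and 541 in Control, so that it stood above Rplp1 in 1C-MIM and below it in Control. Rpl3l came next, at 416 CPM per kilobase in 1C-MIM and 442 in Control.

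The lowest tested members per kilobase were Rps28, Rpl3, Rps15a and Rps4l. Rps28, among the smallest proteins of the small subunit, had 23.0 CPM per kilobase in 1C-MIM and 33.0 in Control. Rpl3 had 24.4 CPM per kilobase in 1C-MIM and 28.6 in Control, so that the muscle paralog stood far above the common form in every library. Rps15a stood at 12.5 in 1C-MIM and 16.5 in Control, on a kept transcript of 5134 bases, the longest of any member. Rps4l, an autosomal relative of the X-linked Rps4x, had 2.95 CPM per kilobase in 1C-MIM and 3.24 in Control. Its only transcript is a non-coding RefSeq record, as are the kept transcripts of Rps27 and Rpl22. The other transcripts of Rps27 and Rpl22 had at least 99.8% as many counts as the kept ones. Neither Rpl10l, a relative of Rpl10 known from the testis, nor Rpl39l, the testis relative of Rpl39, was above 0.484 CPM in any library.

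The members varied together from library to library. Their share of all kept counts, with 1 transcript per symbol, was 1.13, 0.882, 0.972, 0.953 and 1.03% in 1C-MIM libraries 1 to 5. In Control libraries 1 to 5 it was 1.25, 1.11, 1.17, 1.21 and 1.33%. The group means were 0.993% ± 0.093 in 1C-MIM and 1.21% ± 0.081 in Control (SD, n = 5 each). Only 1C-MIM 1 lay inside the Control range. On the log2 CPM scale, the median member of 1C-MIM libraries 1 to 5 differed from its own mean over all libraries by 0.14, -0.35, -0.13, -0.24 and -0.09. In Control libraries 1 to 5 the same median was 0.20, 0.00, 0.02, 0.11 and 0.34. In 1C-MIM 2 all 79 tested members lay below their own mean, and in Control 5 not a single member did; 1C-MIM 1, with 1 member below its mean, stood with the higher Control libraries.

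**Figure D1:**
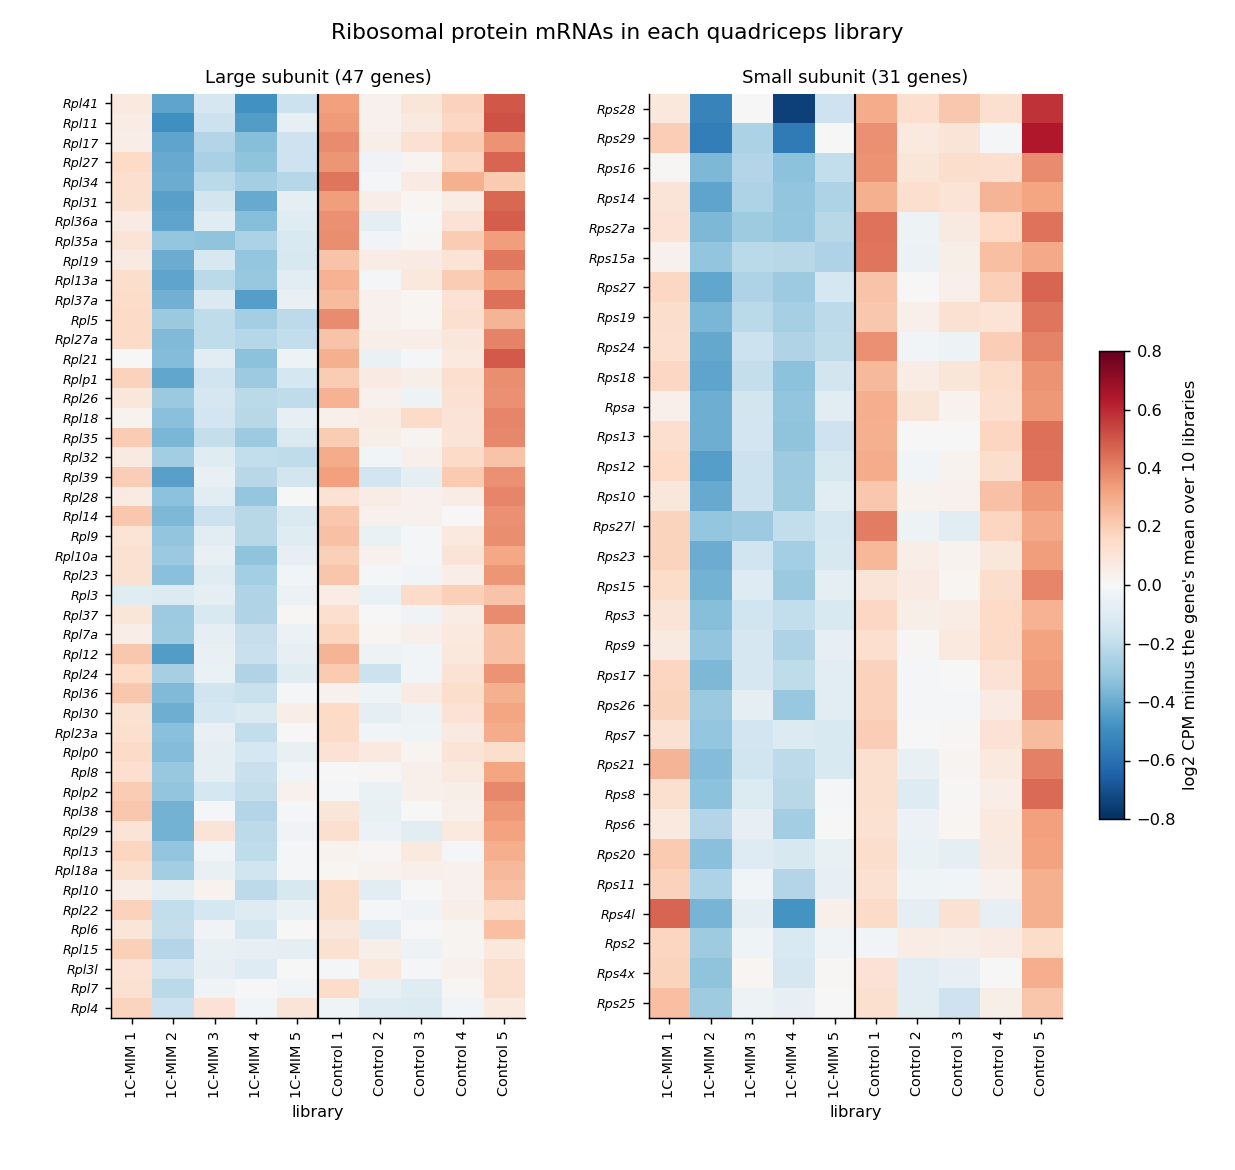
Each row is a ribosomal protein mRNA and each column a library, 1C-MIM left of the line and Control right of it; colour is log2 CPM minus the gene's mean over the 10 libraries, blue for lower and red for higher, with genes ordered by fold change. Columns are nearly uniform in colour: of the 78 members drawn, 1C-MIM 2 is blue for 78 and 1C-MIM 4 for 77, Control 5 is red for all of them, and 1C-MIM 1 is red for 77.

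Ribosomal protein mRNAs were lower in 1C-MIM quadriceps where they differed: 35 of the 79 tested members were called lower and 0 were called higher. A gene was called when its Benjamini-Hochberg adjusted p, over all 13880 genes in edgeR's quasi-likelihood test, was under 0.05. Over all genes tested, 11.8% were called lower and 9.78% higher, 1642 and 1357 genes. With libraries scaled by their totals in place of TMM factors, 69 members and 2896 genes were lower and 0 members and 606 genes higher, around a median of all genes at -0.07. The median member differed by -0.26 on the log2 scale, 1C-MIM over Control, against 0.00 over all genes, and 78 of 79 members had a negative value. The small subunit had 16 of 32 tested members lower, with a median log2 fold change of -0.29, and the large subunit 19 of 47, with a median of -0.24. Members of 1 library share its RNA and depth, so the 79 values are not independent.

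The called members of the small subunit were Rpsa, Rps3, Rps9, Rps10, Rps12, Rps13, Rps14, Rps15a, Rps16, Rps18, Rps19, Rps23, Rps24, Rps27, Rps27a and Rps28. Those of the large subunit were Rplp1, Rpl3, Rpl5, Rpl7a, Rpl11, Rpl13a, Rpl17, Rpl18, Rpl19, Rpl21, Rpl26, Rpl27, Rpl27a, Rpl31, Rpl32, Rpl34, Rpl35a, Rpl36a and Rpl41. The 44 members that were not called had log2 fold changes between -0.46 (Rps29) and 0.08 (Rpl4). Complete separation of the groups was rarer: all 5 1C-MIM libraries lay below all 5 Control libraries for Rpl18, Rps14, Rps16 and Rps28, 4 of 79 members, against 7.98% of all genes. No member had all 1C-MIM libraries above all Control libraries.

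**Figure D2:**
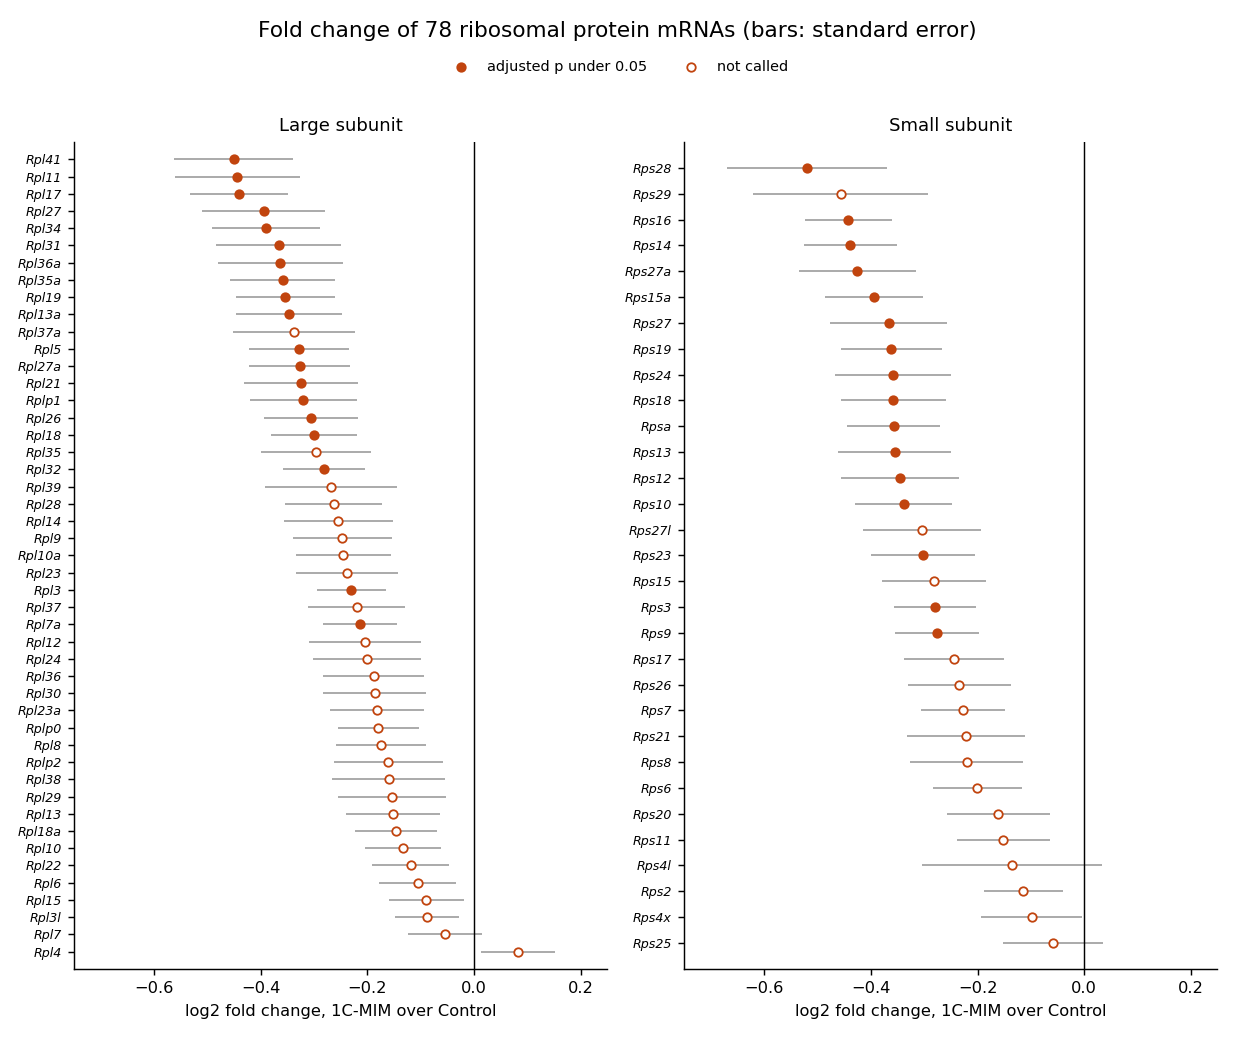
Points give the log2 fold change, 1C-MIM over Control, of 78 tested members, each with its standard error as a bar, large subunit left and small subunit right; filled points have an edgeR adjusted p under 0.05. All points except that of Rpl4 lie left of 0, from -0.52 for Rps28 to -0.05 for Rpl7, and 35 are filled.

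How many members were called rested on single libraries. Leaving out 1C-MIM 1 gave 56 members lower, and leaving out 1C-MIM 2, 3, 4 or 5 gave 16, 14, 6 and 21. Leaving out Control 1, 4 or 5 gave 22, 21 and 14, and leaving out Control 1 and Control 5 together gave 4. A set of 6 members, Rps14, Rps15a, Rps16, Rpsa, Rpl17 and Rpl41, stayed called whichever single library was left out, and Rps14, Rps16 and Rpl17 were called under every other scaling, filter, test, block and left-out library tried, the within-series fits aside. The animal numbers in the deposited file names fall into series: among animals whose number starts with 2 (3 per group), the median member differed by -0.17 and 0 were called lower, and among those whose number starts with 3 (2 per group) the median was -0.40 and 8 were called lower, both by edgeR.

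Rps16, a protein whose tail reaches the decoding centre of the small subunit, had the smallest p of the members. Its level was 51.0, 39.4, 42.9, 40.3 and 44.1 CPM in 1C-MIM libraries 1 to 5, against 64.8, 54.1, 55.8, 55.5 and 65.7 CPM in Control libraries 1 to 5. The groups did not overlap, and 1C-MIM 1 was the nearest to Control. The log2 fold change was -0.44 (SE 0.08, adjusted p = 0.0033 by edgeR). Rps14, a platform protein of the small subunit whose loss of a copy contributes to a form of anaemia in humans, had 235, 163, 184, 175 and 184 CPM in 1C-MIM libraries 1 to 5, against 266, 239, 236, 264 and 271 CPM in Control. These groups were apart as well, again with 1C-MIM 1 highest in its group. The log2 fold change of Rps14 was -0.44 (SE 0.09, adjusted p = 0.0050 by edgeR).

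Rps28 had the largest decrease of any member, with a wide error and few reads. It stood at 9.43, 6.11, 8.90, 5.27 and 7.90 CPM in 1C-MIM libraries 1 to 5, against 10.9, 9.75, 10.3, 9.71 and 13.3 CPM in Control, with a log2 fold change of -0.52 (SE 0.15, adjusted p = 0.026 by edgeR). The call was lost without 1C-MIM 2, without 1C-MIM 4 or without Control 5, at an adjusted p of up to 0.065. Rps15a, which binds the small subunit's rRNA early in assembly, had 75.3, 58.9, 63.2, 62.9 and 61.8 CPM in 1C-MIM, against 99.1, 71.1, 75.8, 86.9 and 90.7 CPM in Control. Only 1C-MIM 1 reached into the Control range. Its log2 fold change was -0.39 (SE 0.09, adjusted p = 0.011 by edgeR).

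Rps27a is made as a fusion with ubiquitin, so its mRNA also supplies ubiquitin. Its level was 103, 73.7, 77.6, 76.2 and 80.9 CPM in 1C-MIM libraries 1 to 5, against 128, 91.9, 99.3, 105 and 128 CPM in Control. The log2 fold change was -0.43 (SE 0.11, adjusted p = 0.017 by edgeR), and without 1C-MIM 4 the adjusted p was 0.053. Rpsa, a small-subunit protein also known as the laminin receptor, had 224, 166, 196, 174 and 204 CPM in 1C-MIM, against 266, 232, 222, 238 and 276 CPM in Control. Here 4 of 5 1C-MIM libraries lay below every Control library. Its log2 fold change was -0.36 (SE 0.09, adjusted p = 0.013 by edgeR).

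On the large subunit, Rpl17, which helps to line the exit tunnel, was called in each setting above except among the animals whose number starts with 2 (adjusted p = 0.193 by edgeR). It stood at 78.1, 56.1, 63.9, 59.3 and 67.1 CPM in 1C-MIM libraries 1 to 5, against 97.8, 77.5, 81.7, 86.9 and 96.5 CPM in Control, and only 1C-MIM 1 overlapped. The log2 fold change was -0.44 (SE 0.09, adjusted p = 0.0063 by edgeR). Rpl11, which together with Rpl5 and the 5S rRNA can restrain Mdm2 and so raise p53, had 81.7, 55.7, 69.5, 57.4 and 75.0 CPM in 1C-MIM, against 99.5, 80.3, 82.3, 88.0 and 112 CPM in Control. Its log2 fold change was -0.44 (SE 0.12, adjusted p = 0.019 by edgeR, and 0.058 without 1C-MIM 4). Its partner Rpl5 averaged 59.9 ± 8.08 CPM in 1C-MIM and 75.3 ± 8.27 CPM in Control (SD, n = 5 each), a log2 fold change of -0.33 (adjusted p = 0.025 by edgeR), a call lost in 6 of the 10 fits with a library left out and with the length trend removed.

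Rpl41, a very short peptide at the bridge between the subunits, had 84.6, 59.7, 73.0, 57.1 and 71.1 CPM in 1C-MIM libraries 1 to 5, against 101, 82.1, 85.7, 90.9 and 113 CPM in Control. The log2 fold change was -0.45 (SE 0.11, adjusted p = 0.014 by edgeR), and only 1C-MIM 1 overlapped the Control range. The stalk genes did not share a call. Rplp1 had 316, 209, 248, 227 and 252 CPM in 1C-MIM, against 319.7, 291, 287, 305 and 359.7 CPM in Control, and was called lower at -0.32 (SE 0.10, adjusted p = 0.037 by edgeR), a call lost in 7 of the 10 fits with a library left out. Rplp0, the stalk's base, had a log2 fold change of -0.18 (SE 0.08) and an adjusted p of 0.103. Rplp2, the partner of Rplp1, had -0.16 (SE 0.10) and 0.266. Whether the stalk genes differed from each other was not tested.

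Rpl4 was the only member with a positive value. Its level was 892, 700.3, 856, 776 and 847 CPM in 1C-MIM libraries 1 to 5, against 769.7, 733, 730.1, 777 and 834 CPM in Control, so that the Control range lay inside the 1C-MIM range. The log2 fold change was 0.08 (SE 0.07, adjusted p = 0.404 by edgeR). Rpl7 (-0.05, SE 0.07) and Rps25 (-0.06, SE 0.09), a protein that viral internal ribosome entry sites depend on, were the nearest to 0, with adjusted p of 0.598 and 0.676.

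**Figure D3:**
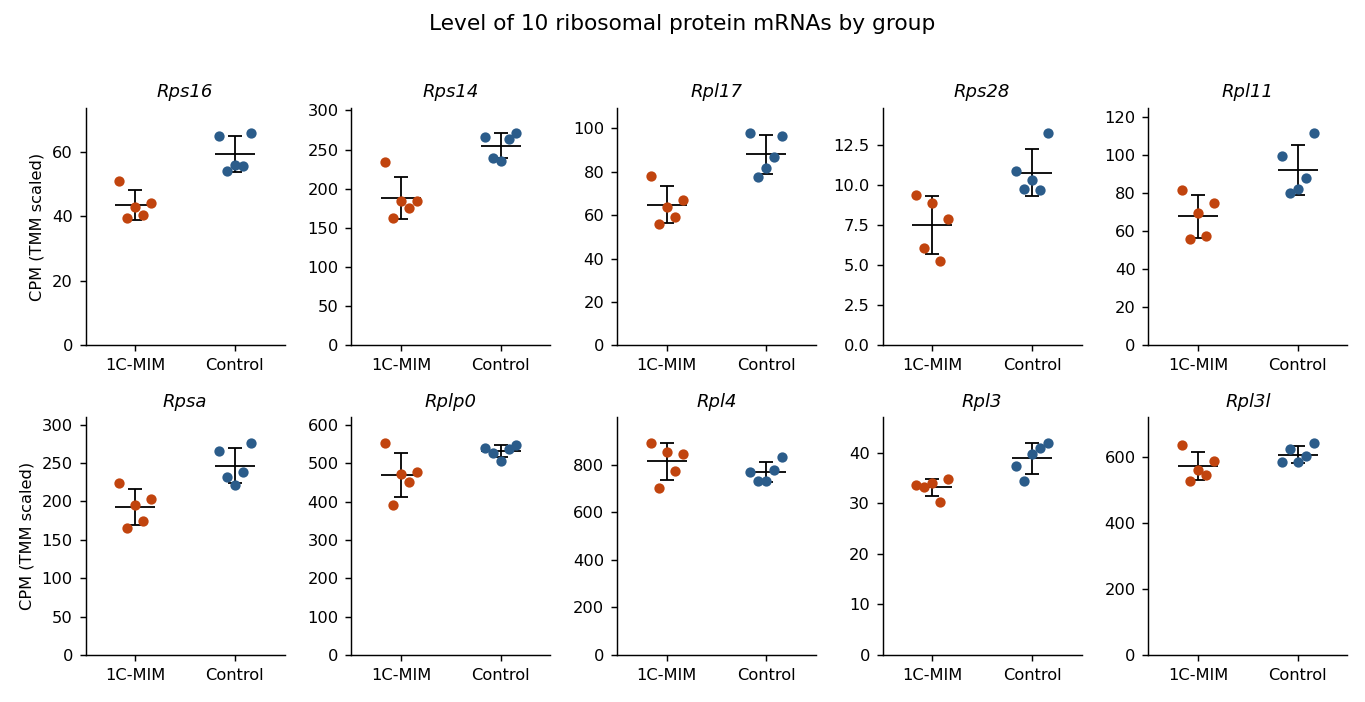
Points are libraries, with CPM on the vertical axis from 0, 1C-MIM left and Control right in each panel; bars give the mean and SD (n = 5 each). For Rps16, Rps14 and Rps28 every 1C-MIM point lies under every Control point, for Rpl17, Rpl11 and Rpsa all but 1C-MIM 1 do, and for Rpl4 and Rpl3l the groups overlap.

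Fold changes followed transcript length over all genes tested, shorter transcripts being lower in 1C-MIM. Member transcripts are short, with a median of 703 bases against 2817 over all tested genes, and 61 of the 79 are under 1000 bases. Over all tested genes, log2 CPM relative to the gene's mean changed per doubling of length by -0.026, 0.121, 0.064, 0.085 and 0.007 in 1C-MIM libraries 1 to 5, and by -0.014, -0.013, -0.030, -0.049 and -0.145 in Control libraries 1 to 5. The libraries with the steepest slopes, 1C-MIM 2 and Control 5, are also those with the lowest and the highest members. Among genes under 1000 bases, 26 of 61 members (42.6%) were called lower with a median log2 fold change of -0.27, and 289 of 1059 other genes (27.3%) with a median of -0.21. Among genes of 1000 bases or more, 9 of 18 members were called lower (median -0.23), and 1318 of 12742 other genes (10.3%, median 0.02). These last sets are not matched in length: tested members run to 5134 bases and all tested genes to 101674. Most of the 18 members lie near the length classes of all genes with medians of 1227.5 to 2270 bases. In those classes the median log2 fold change was -0.16 to -0.05.

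With each library's length trend removed, 11 members were called lower and 1 higher by edgeR, against 9.31% and 6.95% of all genes. The median member then differed by -0.08, with 4 of 47 lower in the large subunit and 7 of 32 in the small. The 11 were Rps3, Rps14, Rps15a, Rps16, Rps19, Rps28, Rpsa, Rpl11, Rpl17, Rpl19 and Rpl41, all of which were also called with the trend left in. Rps16 then had a log2 fold change of -0.25 (adjusted p = 0.0065 by edgeR), Rps14 -0.25 (0.0086), Rpl17 -0.25 (0.012) and Rpsa -0.27 (0.015). Rps15a, on its long transcript, moved the other way, to -0.52 (adjusted p = 0.015 by edgeR). That value and its low level per kilobase rest on 5134 bases, the length of the only transcript given for Rps15a. Whether its reads cover that length was not tested. Rps27a was at -0.23 with an adjusted p of 0.050 and was not called.

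Rpl4, called in neither direction before, was the member called higher with the trend removed, at 0.22 (adjusted p = 0.0051 by edgeR). With length and GC content removed together, 15 members were called lower, against 9.75% of all genes, and 10 of the 11 above were among them, Rps19 being the exception. Length was not varied by the study, so what produced the trend was not tested, and the count of called members depends on whether it is removed.

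**Figure D4:**
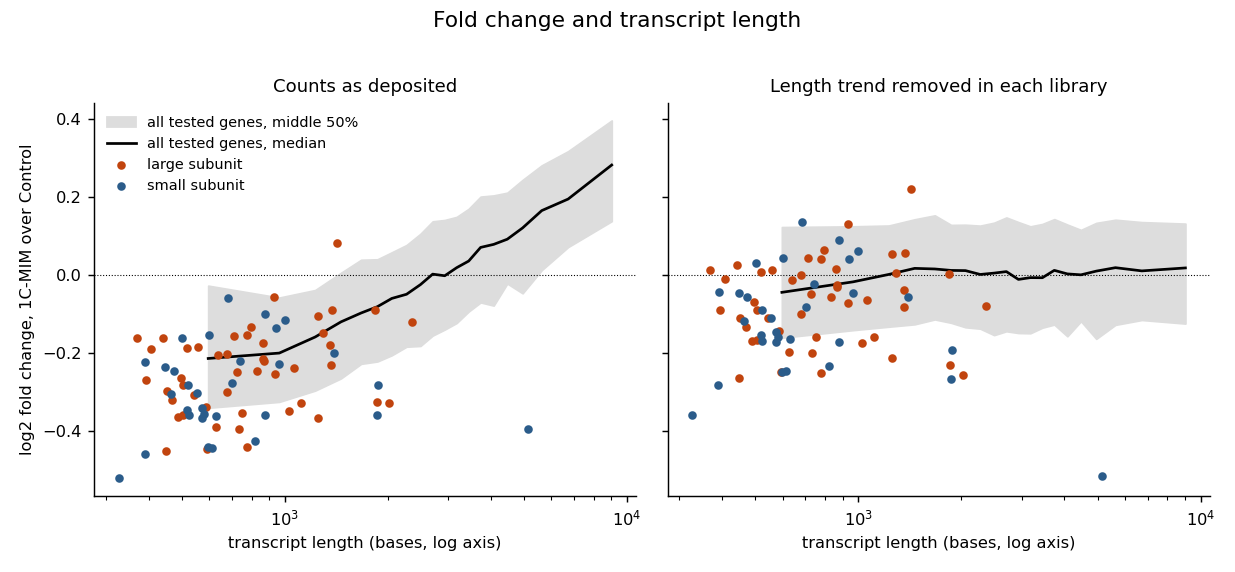
Transcript length in bases runs along a log axis and log2 fold change, 1C-MIM over Control, up the side; dots are members, and the line and band give the median and middle 50% of all tested genes in 20 length classes. On the left the median of all genes climbs from -0.21 in the shortest class to 0.28 in the longest and the members scatter around and under it; on the right, with the length trend removed, it stays near 0 and the median member is at -0.08.

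The muscle paralog and its common form were compared within each library as a log2 ratio of CPM. Rpl3l had 635, 525, 560.2, 546 and 587 CPM in 1C-MIM libraries 1 to 5, against 584, 622, 583, 601 and 642 CPM in Control, a log2 fold change of -0.09 (SE 0.06, adjusted p = 0.303 by edgeR). Rpl3 had 33.6, 33.3, 33.9, 30.3 and 34.8 CPM in 1C-MIM, against 37.3, 34.5, 39.8, 40.9 and 42.0 CPM in Control, and was called lower at -0.23 (SE 0.06, adjusted p = 0.024 by edgeR). That call was lost without Control 4, without Control 5, without 1C-MIM 3 and without 1C-MIM 4, and with the length trend removed (-0.08, adjusted p = 0.335 by edgeR). Rpl3l is given on a second, shorter transcript too, whose counts were 68.1 to 69.9% of the longer transcript's in 1C-MIM and 69.3 to 73.3% in Control.

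Per kilobase, Rpl3l exceeded Rpl3 by 17.1 times in 1C-MIM and 15.5 times in Control. The log2 ratio was 4.10 ± 0.10 in 1C-MIM and 3.96 ± 0.12 in Control (SD, n = 5 each), a difference of 0.14 with overlapping groups (two-sided exact permutation test, p = 0.095, adjusted over 7 pairs 0.222). Without Control 2, the Control library with the highest ratio, the difference was 0.19 (exact permutation p = 0.0159). A call for Rpl3 and none for Rpl3l is therefore not shown to be a difference between them.

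Of the other 6 pairs, Rpl7l1 with Rpl7 and Eef1a2 with Eef1a1 had ratios that did not overlap between groups. Rpl7l1, a relative of Rpl7 that works in ribosome assembly, fell against Rpl7: the log2 ratio was -3.05, -2.77, -3.00, -3.04 and -2.92 in 1C-MIM, against -2.68, -2.71, -2.65, -2.65 and -2.74 in Control. The difference was -0.27 (two-sided exact permutation p = 0.0079, the smallest that 252 assignments allow; adjusted over 7 pairs 0.028). Rpl7l1 itself was called lower at -0.33 (SE 0.06, adjusted p = 0.0029 by edgeR), on a transcript of 2606 bases, and with the length trend removed the difference of the ratio was -0.44.

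The muscle form Eef1a2 rose against Eef1a1 by 0.31 on the log2 scale (two-sided exact permutation p = 0.0079, adjusted over 7 pairs 0.028), at a ratio of 2.56 ± 0.10 in 1C-MIM and 2.25 ± 0.14 in Control (SD, n = 5 each). Eef1a1 had 312, 312, 296, 292 and 312 CPM in 1C-MIM, against 406, 339, 375, 380.8 and 368 CPM in Control, and was called lower at -0.30 (SE 0.06, adjusted p = 0.0039 by edgeR). Eef1a2 had 1802 ± 119.8 CPM in 1C-MIM and 1777 ± 111 CPM in Control (SD, n = 5 each), with a log2 fold change of 0.02. The remaining 4 ratios overlapped between groups, with differences of 0.07 for Rps27l to Rps27, -0.06 for Rps4l to Rps4x, -0.13 for Rpl22l1 to Rpl22 and -0.08 for Rpl36al to Rpl36a and exact permutation p of 0.27 to 0.61. The Rps27 reads cannot be told from those of Rps27rt, whose counts matched within 1%; the same holds for Rpl26, Rpl30 and Rpl34 and the similar genes Gm15772, Gm12191 and Rpl34-ps1.

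Besides Rpl3 and Eef1a1, 2 of the common forms in these pairs were called lower. Rps27, a zinc-binding protein of the small subunit, averaged 105 ± 16.9 CPM in 1C-MIM and 136 ± 17.8 CPM in Control (SD, n = 5 each), a log2 fold change of -0.37 (adjusted p = 0.031 by edgeR). Rpl36a averaged 26.3 CPM in 1C-MIM, where its highest library had 30.9 CPM, and 33.8 CPM in Control, where its lowest had 28.1 CPM, with a log2 fold change of -0.36 (SE 0.12, adjusted p = 0.042 by edgeR). For both genes 1C-MIM 1 alone reached into the Control range. Both calls were lost in 7 of the 10 fits with a library left out and with the length trend removed. For Rps27 the trend was taken at a kept length of 575 bases. The matching counts of Rps27rt, at 345 bases, stayed called with the trend removed (-0.20, adjusted p = 0.046 by edgeR). Rpl22 (-0.12) and Rps4x (-0.10) were not called, nor were Rpl39 (-0.27) and Rpl10 (-0.13), whose testis relatives were too low to test, and neither were the paralogs Rps27l (-0.30, adjusted p = 0.064 by edgeR) and Rps4l (-0.14, 0.587).

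**Figure D5:**
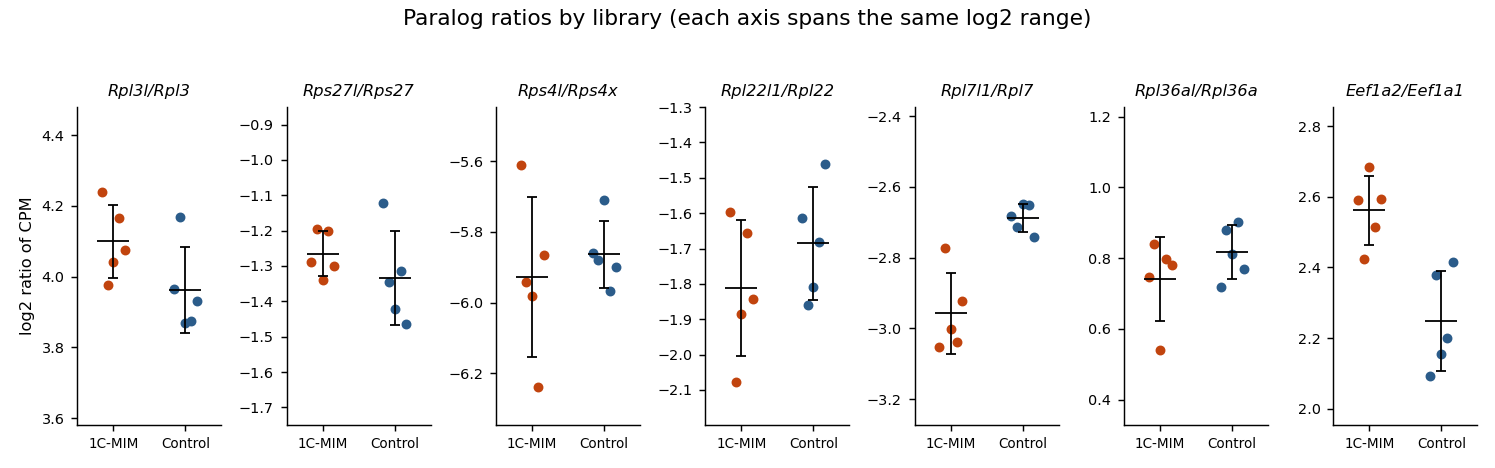
Points are libraries, with the log2 ratio of CPM of paralog to common form on the vertical axis, 1C-MIM left and Control right; bars give the mean and SD (n = 5 each), and each panel spans the same log2 range. Only Rpl7l1 to Rpl7 (lower in 1C-MIM by 0.27) and Eef1a2 to Eef1a1 (higher by 0.31) separate the groups, and Rpl3l to Rpl3 overlaps.

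Genes that work beside the ribosomal proteins did not all go the same way, and the counts below stand beside 9.78% of all genes called higher and 11.8% called lower. Of 11 other ribosomal or ribosome-bound proteins, 5 were called lower and 1 higher, with a median log2 fold change of -0.24 on short transcripts (median 736 bases). The 5 lower genes include Rps27rt (-0.37, adjusted p = 0.031 by edgeR), whose reads cannot be told from those of the member Rps27. The higher gene was Naca, part of the complex that meets the new protein at the tunnel exit: it had 442, 569, 611, 490.3 and 451 CPM in 1C-MIM, against 362, 411, 376, 329.6 and 359 CPM in Control (log2 fold change 0.48, SE 0.09, adjusted p = 0.0042 by edgeR), on a kept transcript of 7034 bases, and 0.28 with the length trend removed. A read is counted for every isoform it fits, so the Naca value cannot be assigned to the form in that complex. Btf3, the partner of Naca there, was called lower at -0.28 (adjusted p = 0.012 by edgeR), but not with the length trend removed (-0.10, 0.104). Rpl36al was called lower at -0.44 (adjusted p = 0.0099 by edgeR), and at -0.24 (0.015) with the trend removed. Of 11 elongation factors 2 were called lower, Eef1a1 and Eif5a (-0.23, adjusted p = 0.041 by edgeR), and 0 higher, with a median of -0.09. The call of Eif5a was lost in 9 of the 10 fits with a library left out and with the length trend removed. Eef1b2 was at -0.29 with an adjusted p of 0.054.

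Of 36 initiation factors, 4 were called higher, a share near the background, and 0 lower, with a median log2 fold change of 0.01; with libraries scaled by their totals alone 1 was higher and 11 lower. Eif5, which triggers GTP hydrolysis at the start codon, averaged 174 ± 12.9 CPM in 1C-MIM and 139 ± 11.2 CPM in Control (SD, n = 5 each; log2 fold change 0.33, adjusted p = 0.0067 by edgeR). Eif3c (0.21, 0.011) and Eif4b (0.20, 0.018) were the next by p. Of 44 ribosome biogenesis genes 2 were higher and 2 lower (1 and 8 with library totals), with a median of -0.01: Riok3, a kinase of small-subunit maturation, was at 0.30 (adjusted p = 0.0048 by edgeR), Wdr43 at 0.21 (0.015) and Bysl, an assembly factor of the small subunit, at -0.28 (0.0072). Of 16 genes of RNA polymerase I and its factors, 2 were higher, among them Tcof1 (0.18, adjusted p = 0.027 by edgeR), and 2 lower, Znrd1 (-0.33, 0.011) and Polr1c (-0.28, 0.029), each count again near the background. None of Tcof1, Znrd1 and Polr1c was called with the length trend removed (adjusted p of 0.306, 0.289 and 0.178 by edgeR), and the call of Polr1c was also lost in 6 of the 10 fits with a library left out.

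Of 23 regulators of the translation of these mRNAs, 7 were called higher and 0 lower (2 and 1 with library totals), against 9.78% and 11.8% of all genes, with a median log2 fold change of 0.18 on long transcripts (median 3182 bases). Tsc2, an inhibitor of mTOR signalling, averaged 129 ± 7.27 CPM in 1C-MIM and 105 ± 6.95 CPM in Control (SD, n = 5 each; log2 fold change 0.29, adjusted p = 0.0067 by edgeR). Sesn1, another inhibitor of that pathway, was at 0.46 (0.012) and Larp1 at 0.26 (0.013). With the length trend removed the list had 3 higher and 1 lower, with Tsc2 at 0.12 (adjusted p = 0.047 by edgeR), Sesn1 at 0.43 (0.024) and Larp1 at 0.09 (0.145). The initiation factors then had 7 higher and 1 lower, the biogenesis genes 4 and 1, RNA polymerase I 1 and 0, the elongation factors 0 and 1, and the other ribosomal proteins 1 and 3. Those 3 include Rps27rt (-0.20, adjusted p = 0.046 by edgeR), which shares its reads with the member Rps27.

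Some markers of other cells in the muscle were called between the same groups, where 11.8% of all genes were called lower and 9.78% higher. Of 8 macrophage markers, 6 were called lower by edgeR, with a summed level of 127 to 187 CPM in 1C-MIM and 223 to 424 CPM in Control. Cd163 (0.19, adjusted p = 0.442 by edgeR) and Mrc1 (-0.22, 0.372) were not called. Fibro-adipogenic progenitor markers, 4 of 6 lower, summed to 548 to 802 CPM in 1C-MIM and 729 to 1017 CPM in Control. Those called were Lum, Thy1, Ly6a and Col3a1, while Pdgfra (0.03, adjusted p = 0.892 by edgeR) and Dcn (0.07, 0.689) were not. Col3a1 averaged 108 CPM in 1C-MIM and 316 CPM in Control. Satellite cell and myoblast markers, 2 of 4 lower, summed to 26.7 to 32.4 CPM in 1C-MIM and 45.3 to 49.3 CPM in Control. Those called were Myod1 and Myog, while Pax7 (-0.15, adjusted p = 0.652 by edgeR) and Myf5 (-0.29, 0.233) were not. Myod1, at a mean of 23.7 CPM in 1C-MIM and 35.6 CPM in Control, made up most of the sum. Endothelial markers, 3 of 4 higher, summed to 193 to 223 CPM in 1C-MIM and 130.4 to 188 CPM in Control. Lymphocyte markers, 1 of 4 tested lower, summed to 1.96 to 3.09 CPM in 1C-MIM and 2.67 to 7.08 CPM in Control. Smooth muscle and pericyte markers (1 of 4 higher) summed to 223 to 318 CPM in 1C-MIM and 202 to 247 CPM in Control, and Schwann cell markers (1 of 4 higher) to 56.6 to 71.0 CPM in 1C-MIM and 43.1 to 58.1 CPM in Control. Red blood cell markers (1 of 3 higher) summed to 49.3 to 68.4 CPM in 1C-MIM and 35.6 to 60.7 CPM in Control. Of the muscle fibre markers 1 of 5 was higher, and no marker was at 0 in all libraries. In each list with only 1 call, the summed levels of the groups overlapped. In bulk tissue, fewer cells of a type and less RNA per cell cannot be told apart, and the part of these cells in the ribosomal protein values was not tested.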

How the data were processed

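RNA-seq of quadriceps was analysed in 10 libraries, 5 1C-MIM and 5 Control, grouped by their titles. Per the file headers, each deposited table lists 33984 transcripts with their count, FPKM and TPM. The counts are whole numbers that the authors had not normalized, and a read is counted for every isoform it fits. The deposited FPKM values, scaled by the authors per kilobase and library total, gave transcript lengths; the deposited TPM values were not used. Per the submitters' processing notes, the build was GRCm39 and the tools included STAR, Salmon 1.5.2 and featureCounts, with no roles; no source used here gives the strandedness. Keeping the transcript with the most reads per symbol left out 45.3 to 47.4% of transcript counts, and the kept totals of 28521254 to 31771296 counts set the precision.

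Counts were filtered with filterByExpr, scaled by TMM and tested in edgeR 4.0.16 (R 4.3.3; quasi-likelihood F test, robust dispersion, Benjamini-Hochberg over 13880 genes, threshold 0.05), after a trial on simulated counts. SE is the absolute log2 fold change over the root of F, and log2 CPM used a prior count of 2. Paralog ratios were compared by exact permutation. Each library's length trend, a natural spline with 3 inner knots, entered the fit as an offset. Alternatives were DESeq2 1.42.0, limma-voom (limma 3.58.1), other scalings and filters, blocks, left-out libraries and summed transcripts. GC content was known for 95.6% of tested genes. It was the mean over all reference transcripts of a symbol, while length was that of the kept transcript.

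The genes named with values are all paralog pair members, the stalk genes, Rpsa and Rps27a, the 8 largest called decreases and increases, the 4 highest and 4 lowest members per kilobase, the 3 with the smallest change and the 3 smallest p of each companion list; Rpl5, Rps29, Rpl18, Rps3a1 and Btf3 were added after their values were seen. One member that this rule names is not reported here, nor drawn. The members and lists were chosen with earlier results of these data known. Nothing says whether animals of a group shared a cage or litter, so p-values measure the spread between these libraries.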

Additional observations from a re-analysis of the deposited data

Results flagged for a closer look

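In 4 of the 102 groups of 5 libraries examined, the value of a library stood apart from the other 4 by more than 0.71 of the group's range, which chance gives in about 1 group in 20. Rps27a stood at 103 CPM in 1C-MIM 1, against 73.7 to 80.9 CPM in the other 1C-MIM libraries. Rps15a stood at 75.3 CPM in 1C-MIM 1, against 58.9 to 63.2 CPM in the others of that group. Rplp2 stood at 219 CPM in Control 5, against 162 to 174 CPM in the other Control libraries. The elongation factor Eif5a stood at 400.2 CPM in Control 5, against 342 to 352 CPM in the others. 1C-MIM 1 and Control 5 were the libraries with the highest median member in their group.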

How the results depend on the processing

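Members called lower (35) numbered 35 with DESeq2 size factors, 42 with DESeq2, 39 with limma-voom, 29 with no filter, 36 with a filter of 1 CPM, 29 with the animal number series as a block and 34 with summed transcripts. They numbered 69 with library totals, which moved the median of all genes by -0.07 and its calls to 606 higher and 2896 lower, against 1357 and 1642. They numbered 11 and 15 with the length and the length and GC trend removed, 4 without Control 1 and Control 5, 6 to 56 without a single library, 0 and 8 within the animal series (chosen after seeing the data), and members called higher were 1 in each fit with a trend removed and 0 otherwise. With replicate number as a block they numbered 55, and 27 with the length trend removed too; same-numbered libraries correlated at -0.075 to 0.387 and 2 of 5 matched best with their own number, so the numbers were not taken as pairs. Companion genes called higher (16) numbered 5 with library totals, 8 without Control 1 and Control 5, 10 to 20 without a single library (10 without 1C-MIM 3), 0 and 1 within the animal series, and 26 at an adjusted p under 0.1. Those called lower (11) numbered 36 with library totals, 23 with the block, 5 without Control 1 and Control 5, 6 to 22 without a single library (6 without Control 4, Control 5 or 1C-MIM 2, 3 or 4 and 22 without 1C-MIM 1), 7 with the length trend removed, 0 and 1 within the animal series, and 24 at an adjusted p under 0.1. The causes were not tested. The difference of the Rpl3l to Rpl3 ratio was 0.10 to 0.19 without a single library, and that of Rps27l to Rps27 0.036 to 0.12. In the block, where 5 sign flips cannot give a p under 0.0625, the Rpl7l1 to Rpl7 difference was -0.27 and that of Eef1a2 to Eef1a1 0.31. No gene or ratio called as reported changed sign. With 5 animals a group, differences near the median member's were called or not by small changes of spread.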

Other observations

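Across the 79 tested members, the log2 fold change had a Spearman rho of 0.43 with the mean CPM, 0.27 with transcript length, 0.30 with the level per kilobase and 0.06 with GC content; members share libraries and depth, so these describe the list only. With the length trend removed, rho was 0.10 with length and 0.42 with CPM. Rps3a1, a small-subunit protein whose symbol the rule leaves out, averaged 168 CPM in 1C-MIM and 185 CPM in Control, a log2 fold change of -0.14 (SE 0.09, adjusted p = 0.303 by edgeR).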
